A study of Homo sapiens with 6 samples.

Results

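Hypoxia-response and glycolysis genes were followed in CCD18Co cells, a human colon fibroblast line, after *LTBP2* silencing. The set was a named list of 36 genes chosen because *ANGPTL4*, one of its members, was among the genes known to rise in these cells, and the question was whether the other genes of a hypoxia response moved with it. All 36 symbols were found among the 60663 genes of the count table, and 34 had enough reads to be tested, of 16920 genes tested in all. The 2 that were not tested were *EGLN3* and *CA9*.

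In cells with enough oxygen, prolyl hydroxylases of the EGLN family mark the alpha subunits of the hypoxia-inducible factors (HIF) for destruction. When oxygen is short the subunits, HIF-1α from *HIF1A* and HIF-2α from *EPAS1*, are stabilised and bind, with the product of *ARNT*, to short DNA motifs near their target genes. The best known targets move glucose into the cell, convert it to lactate and export the lactate, adjust pH, modify collagen and clear mitochondria. HIF activity is set largely at the protein level, which RNA levels do not measure.

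The study compared cells transfected with a pool of small interfering RNAs against *LTBP2* (siLTBP2, 3 libraries) with cells given a non-targeting pool (siNT, 3 libraries). Transfection lasted 6 h and RNA was collected at 48 h. Both groups were the same line and no library had low oxygen as a treatment, so the control carries the transfection itself, and 1 pool against *LTBP2* was used. The labels do not say whether replicates came from separate cultures, so p-values measure the spread between these samples only, which may be technical.

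The 6 libraries held between 44663424 and 53576899 counts. *LTBP2*, which encodes a secreted protein bound to extracellular microfibrils, was at 25.0, 23.1 and 21.2 CPM (counts scaled to library size and composition) in siNT and at 6.49, 8.61 and 6.00 CPM in siLTBP2. The 2 groups were apart, and the log2 fold change was -1.72 ± 0.15 (SE; adjusted p = 6.6e-05, edgeR's quasi-likelihood test). The 9 fibroblast markers summed to 9933-13204 CPM in siNT and 10067-14406 CPM in siLTBP2, with *VIM* the most abundant. Of these markers 1 was called lower, the growth factor receptor gene *PDGFRB* (log2 fold change -0.60 ± 0.10, adjusted p = 0.00252), named after its value was seen, and 3 had log2 fold changes above 0 and 6 below. The 9 markers of epithelial, immune and endothelial cells summed to at most 2.36 CPM in any library, with the epithelial keratin *KRT20* at 0 in all 6. In bulk RNA, fewer cells of a type and less RNA per cell cannot be told apart.

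More members were called higher than lower. Among the 34 genes tested, 12 were higher in siLTBP2 at an adjusted p below 0.05 (35.3%), where 9.76% of all genes tested were. Without *ANGPTL4*, whose rise was known when the set was chosen, 11 of 33 were higher (33.3%). The other members were also chosen with earlier results of these data known, so these shares describe the set and are not a test. In the other direction 4 were lower (11.8%), near the 9.51% of all genes. The remaining 18 did not pass. The median log2 fold change of the set was 0.15, and 0.09 with *ANGPTL4* left out, beside -0.01 over all genes tested. All 3 siLTBP2 libraries lay above all 3 siNT libraries for 14 members, a pattern that 18.7% of all genes showed, and all 3 lay below for 5 members, as did 18.3% of all genes. With the stricter call used for deregulated genes, an adjusted p below 0.01 and a change of more than 2-fold, 1.29% of all genes were higher and 1.27% lower. *ANGPTL4* was the 1 member that met it.

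The higher calls were of unequal firmness. Under all 14 alternative analyses 4 of the 12 remained called, *ANGPTL4*, *BNIP3L*, *SLC2A3* and *SLC16A3*. Of the 4 lower calls 3 remained, *EPAS1*, *NDRG1* and *PFKM*. The count of higher members was 6 without replicate 1 or 2 of siNT or replicate 1 of siLTBP2, and 7 without replicate 3 of siNT or replicate 2 of siLTBP2, and the share of all genes called higher was between 5.97% and 7.62% in these fits.

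**Figure D1:**
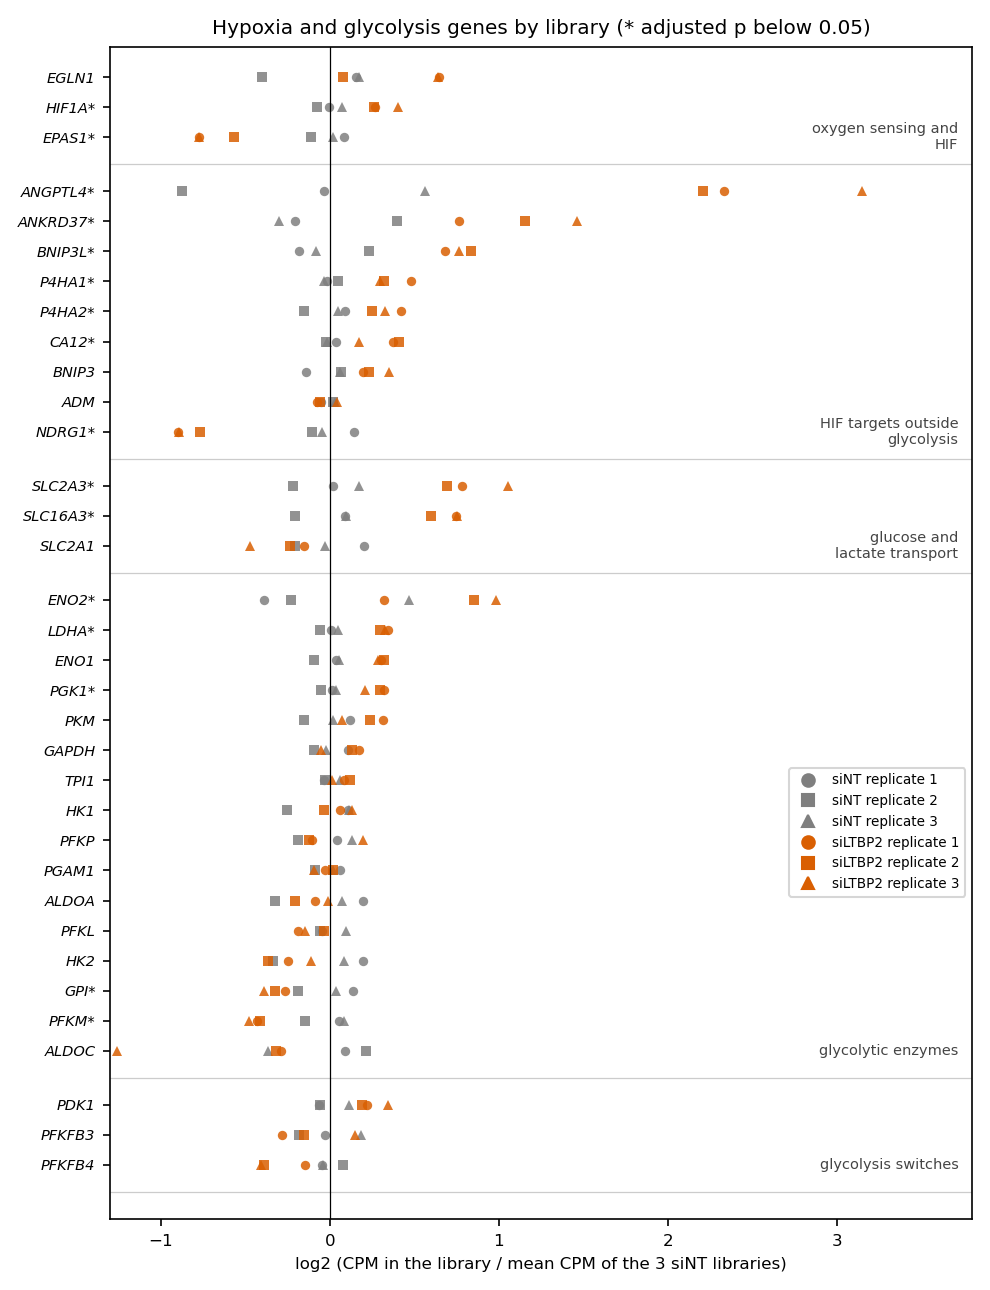
Each row is 1 of the 34 tested genes, grouped by role, and each point is 1 library. The x axis is the log2 of the library's CPM over the mean of the 3 siNT libraries, with siNT in grey and siLTBP2 in orange, and stars mark an adjusted p below 0.05. *ANGPTL4* stands far to the right of the other genes, *NDRG1* and *EPAS1* stand to the left, and most glycolytic enzymes lie near 0.

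*ANGPTL4* encodes a secreted inhibitor of lipoprotein lipase and is a target of both HIF and the lipid-sensing PPAR receptors. Its level was 2.14, 1.20 and 3.23 CPM in siNT and 11.04, 10.13 and 19.4 CPM in siLTBP2. The lowest siLTBP2 library was thus above the highest siNT library, and siLTBP2 replicate 3 was the highest of all. The log2 fold change was 2.62 ± 0.34 (SE; adjusted p = 5.3e-04), a 6.16-fold difference, and ranked 14th from the highest among the 16920 genes tested. This rise was the reason the gene was chosen and is given as a description. Even so the gene stayed weakly expressed. Per kilobase of exon it ranked 33rd of the 36 genes in siNT, at 0.88 ± 0.41 CPM per kilobase, and was at 5.46 ± 2.06 in siLTBP2 (SD, n = 3).

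The motif ACGTG, a form of the HIF-binding core, was searched on both strands in the 250 bases before the annotated starts. These windows are shown for the called genes that hold it. Other forms of the core, such as GCGTG, were not searched, so the counts below cover ACGTG only. RefSeq (GRCh38.p14) windows were matched for 33 members, and none was matched for *NDRG1*, *SLC2A3* or *BNIP3L*. The motif was in 23 of the members' 60 windows (38.3%), in 18.5% of the 35116 windows of all genes and in 22.2% of the windows of genes tested here. Counted by gene, it was present for 7 of 10 higher members, 2 of 3 lower members and 10 of 18 members that did not pass. By the same count it was present for 60.6% of members and 28.7% of genes tested. A gene with several windows has more chances of a match, and among genes with 1 window 50.0% of members and 24.2% of genes tested held it. The palindrome CACGTG is read on both strands and is also the E-box bound by other factors. A match is a stretch of letters and not a measured binding site.

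The 7 higher genes with a match were *ANGPTL4*, *ANKRD37*, *P4HA1*, *LDHA*, *ENO2*, *SLC16A3* and *PGK1*. The first 2 are printed as whole windows because they had the largest fold changes of the set, and the others, with the 2 lower genes *PFKM* and *GPI*, as 61 bases around the match nearest the start. Sequences run 5′ to 3′ in the direction of the gene, and capitals mark ACGTG or its reverse complement CACGT.
ANGPTL4, chr19:8363905-8364154, + strand: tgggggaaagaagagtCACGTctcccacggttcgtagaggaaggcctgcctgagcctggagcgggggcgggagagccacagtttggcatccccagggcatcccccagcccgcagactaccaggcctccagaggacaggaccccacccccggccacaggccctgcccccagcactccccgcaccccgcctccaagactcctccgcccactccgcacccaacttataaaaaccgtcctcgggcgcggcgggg
ANKRD37, chr4:185396591-185396840, + strand: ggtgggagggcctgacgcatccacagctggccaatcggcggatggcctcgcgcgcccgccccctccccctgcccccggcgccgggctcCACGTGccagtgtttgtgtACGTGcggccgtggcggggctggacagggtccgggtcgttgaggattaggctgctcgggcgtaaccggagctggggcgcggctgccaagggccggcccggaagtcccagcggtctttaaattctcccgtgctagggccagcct
P4HA1, chr10:73096920-73096980, - strand: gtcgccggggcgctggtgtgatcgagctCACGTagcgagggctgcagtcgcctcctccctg
LDHA, chr11:18394462-18394522, + strand: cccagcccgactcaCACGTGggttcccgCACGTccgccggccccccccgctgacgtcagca
ENO2, chr12:6914434-6914494, + strand: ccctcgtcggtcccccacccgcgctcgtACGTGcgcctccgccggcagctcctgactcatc
SLC16A3, chr17:82228959-82229019, + strand: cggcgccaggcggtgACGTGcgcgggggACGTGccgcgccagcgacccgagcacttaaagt
PGK1, chrX:78104037-78104097, + strand: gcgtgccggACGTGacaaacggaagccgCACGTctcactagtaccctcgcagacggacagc
PFKM, chr12:48105331-48105391, + strand: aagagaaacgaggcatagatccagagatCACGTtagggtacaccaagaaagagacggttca
GPI, chr19:34364802-34364862, + strand: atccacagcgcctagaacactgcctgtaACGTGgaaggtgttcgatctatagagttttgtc

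Some windows held several matches. *ANKRD37* held matches 162, 161 and 143 bases before the start, the first 2 being the strands of 1 palindrome. *LDHA* held matches at 3 places in its window, 2 of them palindromes read on both strands, and *SLC16A3* and *PGK1* held 2 each. *ANGPTL4* held 1, at 234 bases before the start. The higher genes *HIF1A*, *CA12* and *P4HA2* and the lower gene *EPAS1* held no ACGTG on either strand in these windows. That does not show that they lack a HIF-binding core, because GCGTG was not searched.

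The RNAs of the HIF alpha subunits moved in opposite directions. *HIF1A* was at 298, 284 and 314 CPM in siNT and at 359, 358 and 395 CPM in siLTBP2. The groups did not overlap, and the log2 fold change was 0.31 ± 0.09 (adjusted p = 0.0315). Leaving out any 1 of the 6 libraries ended this call, with a highest adjusted p of 0.0928 over all alternatives. *EPAS1* was at 976, 853 and 935 CPM in siNT and at 538, 624 and 538 CPM in siLTBP2. Here the separation was wide, with a log2 fold change of -0.70 ± 0.10 (adjusted p = 0.00114).

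Counted per kilobase of exon, *HIF1A* made up 31.5% ± 1.15 of the pair's RNA in siNT and 48.1% ± 3.07 in siLTBP2 (SD, n = 3), so that the pair came to near equal levels. The groups did not overlap. With 3 libraries against 3 the exact two-sided permutation test cannot give a p below 0.1, so these shares are given without a test. Of the oxygen-sensing hydroxylases, *EGLN1* was at 10.5, 7.15 and 10.6 CPM in siNT and 14.7, 9.94 and 14.7 CPM in siLTBP2, and did not pass (log2 fold change 0.48 ± 0.19, adjusted p = 0.108). The annotation places another gene on 55.8% of its exon bases on the same strand, so its count is uncertain. At most 1 read was counted to that gene in any library, which does not show how reads on the shared bases were handled. *EGLN3*, which is itself a strong HIF target in many cells, had 5, 4 and 5 reads in siNT and 5, 0 and 2 in siLTBP2, too few to compare.

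**Figure D2:**
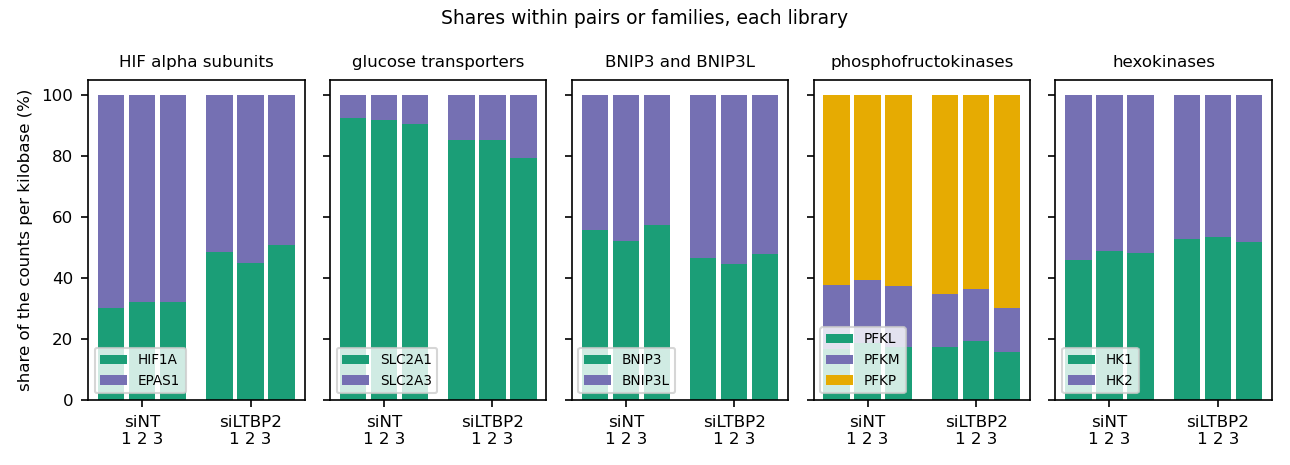
Stacked bars give, for each of the 6 libraries, the share in percent of each gene in a pair or family after division by exon length. The mean *HIF1A* share was 31.5% in siNT and 48.1% in siLTBP2, and the mean *SLC2A3* share was 8.33% and 16.7%. Hexokinase and phosphofructokinase shares lay closer together.

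Of the members that are targets outside glycolysis, 6 were higher and 1 lower of 9 tested, beside 9.76% and 9.51% of all genes tested, with a median log2 fold change of 0.34. *ANGPTL4*, known to rise when the set was chosen, is among the 6. *ANKRD37*, an ankyrin-repeat gene induced by hypoxia, was at 0.69, 1.05 and 0.65 CPM in siNT and at 1.35, 1.78 and 2.20 CPM in siLTBP2. The groups did not overlap, and the log2 fold change was 1.16 ± 0.27 (adjusted p = 0.0132), on 32 to 116 reads per library. Without siNT replicate 1 the adjusted p was 0.0501. The gene shares 40.3% of its exon bases with *UFSP2* on the other strand, and *UFSP2* had a log2 fold change of 0.02 (adjusted p = 0.926).

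*BNIP3L* and *BNIP3* encode related receptors that mark mitochondria for removal by autophagy. *BNIP3L* was at 71.1, 94.5 and 76.1 CPM in siNT and 129, 144 and 137 CPM in siLTBP2, a clear separation with a log2 fold change of 0.76 ± 0.11 (adjusted p = 0.00106). *BNIP3* was at 87.6, 101 and 101 CPM in siNT and 111, 113 and 123 CPM in siLTBP2. These groups were apart too, but the log2 fold change of 0.26 ± 0.09 did not pass (adjusted p = 0.0648). Per kilobase the *BNIP3L* share of the pair was 44.8% ± 2.66 in siNT and 53.6% ± 1.67 in siLTBP2 (SD, n = 3), without overlap.

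The catalytic subunits of collagen prolyl 4-hydroxylase, which HIF induces and collagen folding needs, were both higher. *P4HA1* was at 114, 119 and 112 CPM in siNT and 161, 144 and 141 CPM in siLTBP2 (log2 fold change 0.37 ± 0.08, adjusted p = 0.0118). Without siLTBP2 replicate 1, its highest library, the adjusted p was 0.0589. *P4HA2* was at 81.3, 68.5 and 78.9 CPM in siNT and 102, 90.7 and 95.5 CPM in siLTBP2 (log2 fold change 0.34 ± 0.09, adjusted p = 0.0279). Neither pair of groups overlapped.

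Carbonic anhydrases help cells export acid. *CA12*, a membrane enzyme, was at 63.5, 60.9 and 61.2 CPM in siNT and 80.1, 82.1 and 69.7 CPM in siLTBP2, without overlap (log2 fold change 0.32 ± 0.09, adjusted p = 0.0275). *CA9*, among the most specific HIF targets known, had 3, 3 and 6 reads in siNT and 7, 3 and 5 in siLTBP2. It was close to undetected in both groups and no difference could be measured at this depth. The calls of *P4HA2* and *CA12* were each lost when any of several single libraries was left out.

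Not all classical targets were higher. *NDRG1*, a stress-response gene that hypoxia strongly induces, was at 291, 245 and 255 CPM in siNT and 142, 155 and 142 CPM in siLTBP2. Every siLTBP2 library was well below every siNT library, with a log2 fold change of -0.85 ± 0.09 (adjusted p = 2.3e-04), the largest decrease in the set. *ADM*, which encodes the vasodilator peptide adrenomedullin, was at 121, 127 and 128 CPM in siNT and 119, 120 and 129 CPM in siLTBP2. These values overlapped, and the 95% interval of the log2 fold change ran from -0.20 to 0.15 (adjusted p = 0.847).

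**Figure D3:**
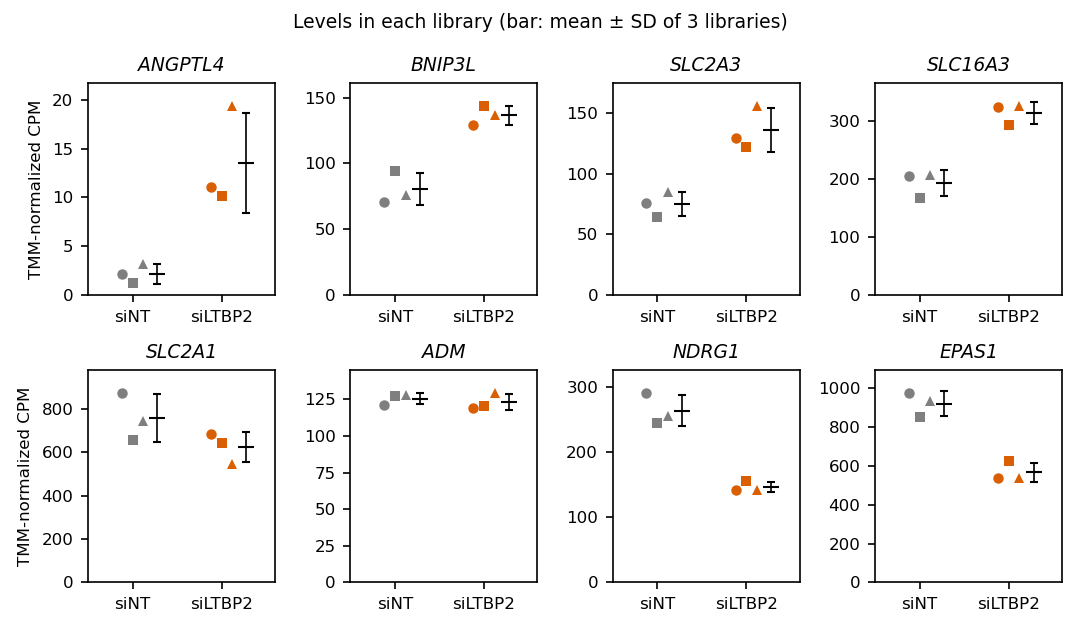
Points are the CPM of each library for 8 genes, siNT in grey and siLTBP2 in orange, and the black bar beside them is the mean ± SD of 3 libraries, on axes that start at 0. The top row holds the 4 genes higher under every alternative, *SLC2A1* and *ADM* overlap between groups, and *NDRG1* and *EPAS1* are lower in all 3 siLTBP2 libraries.

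Of the 3 genes of glucose uptake and lactate export, 2 were higher and 1 did not pass, beside 9.76% higher and 9.51% lower of all genes tested. *SLC2A3*, the high-affinity glucose transporter GLUT3, was at 76.1, 64.7 and 84.7 CPM in siNT and 130, 122 and 156 CPM in siLTBP2, without overlap (log2 fold change 0.85 ± 0.12, adjusted p = 9.6e-04). *SLC2A1*, the main transporter GLUT1 and a classical HIF target, was at 874, 657 and 745 CPM in siNT and 684, 644 and 547 CPM in siLTBP2. Its groups overlapped, and the log2 fold change of -0.28 ± 0.13 did not pass (adjusted p = 0.154, 95% interval -0.56 to -0.0004). In 2 of the 14 alternatives edgeR's quasi-likelihood test called *SLC2A1* lower, and in the other 12 it did not pass. The 2 were keeping every gene with a read (adjusted p = 0.048) and adding the replicate number as a block (adjusted p = 0.00799). GLUT1 RNA remained the more abundant per kilobase, although the *SLC2A3* share of the pair was 8.33% ± 1.02 in siNT and 16.7% ± 3.40 in siLTBP2 (SD, n = 3). *SLC16A3*, the lactate exporter MCT4, was at 206, 168 and 207 CPM in siNT and 325, 293 and 327 CPM in siLTBP2, a wide separation (log2 fold change 0.70 ± 0.10, adjusted p = 0.00117).

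The 16 glycolytic enzymes did not move together. Of these, 3 were higher (18.8%), 2 were lower (12.5%) and 11 did not pass, beside 9.76% higher and 9.51% lower of all genes tested, and their median log2 fold change was 0.03. Their summed level was 14598, 12760 and 14025 CPM in siNT and 15985, 15612 and 14545 CPM in siLTBP2. The sums overlapped, with siLTBP2 replicate 3 below siNT replicate 1, and the ratio of the means was 1.11. *GAPDH*, *PKM* and *ENO1* made up between 72.7% and 75.3% of that sum in every library.

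The higher enzymes were *LDHA*, *PGK1* and *ENO2*. *LDHA*, which makes lactate from pyruvate, was at 1082, 1034 and 1115 CPM in siNT and 1367, 1326 and 1352 CPM in siLTBP2, without overlap (log2 fold change 0.32 ± 0.09, adjusted p = 0.0325). *PGK1*, the first ATP-making enzyme of the pathway, was at 337, 322 and 343 CPM in siNT and 417, 411 and 387 CPM in siLTBP2, also without overlap (log2 fold change 0.28 ± 0.08, adjusted p = 0.0425). The call of *LDHA* was lost without any 1 of the 6 libraries and that of *PGK1* without any 1 of 5. *ENO2*, an enolase best known from neurons, was at 8.74, 9.76 and 15.9 CPM in siNT and 14.3, 20.7 and 22.7 CPM in siLTBP2. It was called higher (log2 fold change 0.74 ± 0.23, adjusted p = 0.0428) although siNT replicate 3 lay above siLTBP2 replicate 1. The common enolase *ENO1* was between 1861 and 2063 CPM in siNT and between 2426 and 2487 CPM in siLTBP2, and its log2 fold change of 0.30 ± 0.10 narrowly missed the threshold (adjusted p = 0.0567). *ENO1* was called higher in 6 of the 14 alternatives and did not pass in the other 8. The 6 included the likelihood ratio test (adjusted p = 0.019) and DESeq2 (adjusted p = 0.00783).

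The lower enzymes were *PFKM* and *GPI*. *PFKM*, a phosphofructokinase subunit, was at 109, 94.3 and 111 CPM in siNT and 77.5, 78.6 and 75.0 CPM in siLTBP2 (log2 fold change -0.44 ± 0.09, adjusted p = 0.00572). *GPI*, which converts glucose 6-phosphate to fructose 6-phosphate, was at 249, 199 and 233 CPM in siNT and 189, 182 and 174 CPM in siLTBP2 (log2 fold change -0.32 ± 0.10, adjusted p = 0.042). Neither pair of groups overlapped, and the *GPI* call was lost without any 1 of 5 libraries. Among the phosphofructokinase subunits the *PFKM* share per kilobase was 20.5% ± 0.43 in siNT and 16.3% ± 1.59 in siLTBP2 (SD, n = 3).

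The enzymes that did not pass had log2 fold changes from -0.56 (*ALDOC*, a brain-type aldolase) to 0.30 (*ENO1*). *GAPDH*, the enzyme most often used as a reference gene, had 0.09 ± 0.12, with a 95% interval from -0.17 to 0.35. *PKM*, the pyruvate kinase, had 0.21 ± 0.12 and *HK2*, the hexokinase that hypoxia induces, had -0.24 ± 0.13, with adjusted p of 0.257 and 0.248. *TPI1*, *HK1*, *PFKP*, *PGAM1*, *ALDOA* and *PFKL* lay between -0.12 and 0.07. For *ALDOA* 42.8% of the exon bases are annotated to another gene on the same strand, so its count is uncertain. Reads counted to processed pseudogene copies came to at most 0.80% of any parent gene's count.

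None of the 3 switches that set the flow through glycolysis passed edgeR's quasi-likelihood test after adjustment, nor with DESeq2 or the likelihood ratio test. Of the 3, 2 had an unadjusted p below 0.05. With the replicate number added as a block, edgeR's quasi-likelihood test called *PDK1* higher (adjusted p = 0.00683) and *PFKFB4* lower (adjusted p = 0.0118). *PDK1*, the kinase through which HIF holds pyruvate back from mitochondria, was at 41.5, 41.6 and 46.9 CPM in siNT and 50.5, 49.4 and 55.1 CPM in siLTBP2. The groups were apart, but the log2 fold change of 0.25 ± 0.09 missed the threshold (adjusted p = 0.0773). *PFKFB3* and *PFKFB4* make fructose 2,6-bisphosphate, the activator of phosphofructokinase, and had log2 fold changes of -0.08 ± 0.13 and -0.31 ± 0.12 (adjusted p = 0.706 and 0.0852). For *PFKFB4* all 3 siLTBP2 libraries lay below siNT.

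**Figure D4:**
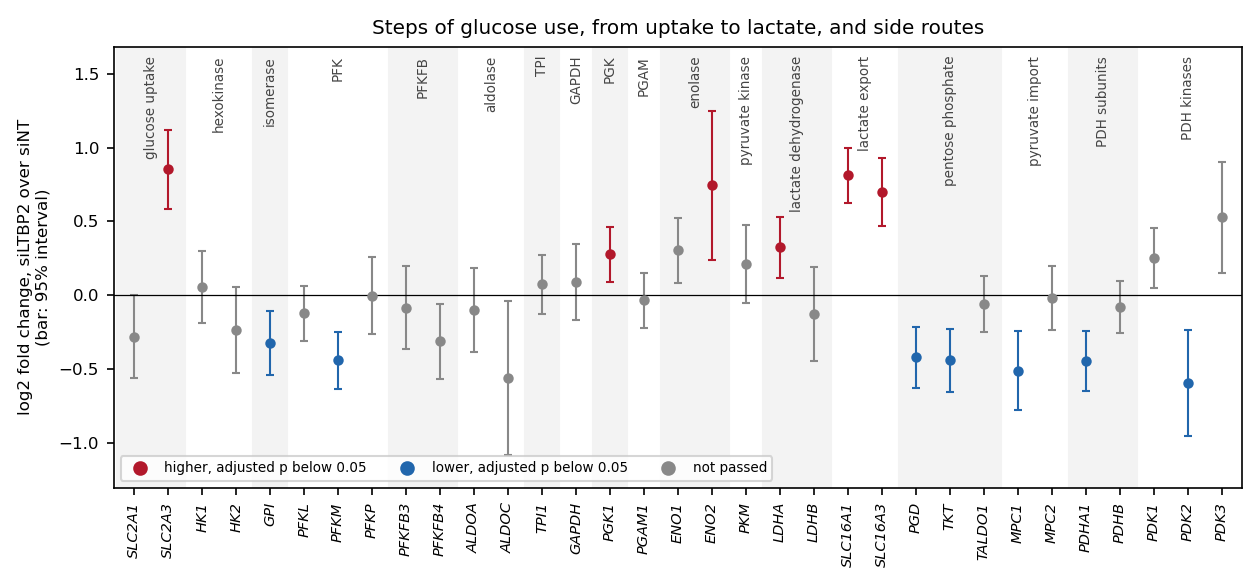
Points are log2 fold changes of siLTBP2 over siNT with 95% intervals, for genes in the order of the steps from glucose uptake to lactate export, followed by the pentose phosphate pathway and the entry of pyruvate into mitochondria. Red points were called higher and blue points lower. *SLC2A3*, *SLC16A1*, *ENO2* and *SLC16A3* have the largest positive values shown, and the blue points are *GPI*, *PFKM*, *PGD*, *TKT*, *MPC1*, *PDHA1* and *PDK2*.

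The other genes of the HIF pathway and hypoxia response, a list of 36 genes of which 35 were tested, held 8 higher (22.9%) and 3 lower (8.57%), beside 9.76% and 9.51% of all genes tested, and had a median log2 fold change of 0.11. The deregulated ones were *LOX* and *VLDLR*. *LOX*, the collagen cross-linking oxidase, was at 179, 143 and 153 CPM in siNT and 384, 333 and 360 CPM in siLTBP2, without overlap (log2 fold change 1.18 ± 0.11, adjusted p = 7.6e-05). *VLDLR*, a lipoprotein receptor, was at 2.77, 2.37 and 3.58 CPM in siNT and 6.86, 7.57 and 6.68 CPM in siLTBP2, also without overlap (log2 fold change 1.27 ± 0.17, adjusted p = 7.5e-04). *VEGFA*, the angiogenic growth factor and emblem of the HIF response, was at 203, 185 and 186 CPM in siNT and 249, 230 and 189 CPM in siLTBP2. It did not pass (log2 fold change 0.22 ± 0.11, adjusted p = 0.189), and without siLTBP2 replicate 3, its lowest library there, the adjusted p was 0.0404.

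Some further genes of this list are named after their values were seen. The collagen lysyl hydroxylase *PLOD2* (log2 fold change 0.78) and the oxidative folding enzyme *ERO1A* (0.59) were higher, while the glycogen genes *PPP1R3C* (-0.82) and *GYS1* (-0.46) were lower.

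*ANGPTL4* can also be induced through the PPAR receptors and by glucocorticoids. Of the 15 PPAR-related genes tested, 2 were higher (13.3%) and 4 lower (26.7%), beside 9.76% and 9.51% of all genes tested. The median log2 fold change of the 15 was -0.08. The list holds 4 receptor genes, of which 1 was higher and 3 were lower, and of the other 11 genes 1 was higher, *PLIN2*, and 1 lower, *HADHA*, an enzyme of fatty acid oxidation named after its value was seen. *PLIN2*, which coats lipid droplets and is a target of both PPAR and HIF, was at 57.1, 45.2 and 63.1 CPM in siNT and 81.5, 84.1 and 95.2 CPM in siLTBP2, without overlap (log2 fold change 0.66 ± 0.12, adjusted p = 0.00428). *CPT1A*, the carnitine transferase of fatty acid oxidation, had a log2 fold change of -0.08 ± 0.12 (adjusted p = 0.698), and *PDK4*, among the strongest PPAR targets, was too low to test. Of the 8 glucocorticoid-related genes tested 2 were higher (25%) and none lower by edgeR's quasi-likelihood test, beside 9.76% and 9.51% of all genes. In that test 1 was lower at an unadjusted p below 0.05. *FKBP5*, the usual marker of the glucocorticoid response, had 0.18 ± 0.10 (adjusted p = 0.225). The higher ones, named after their values were seen, were the kinase gene *SGK1* (0.72 ± 0.16, adjusted p = 0.00934) and the metallothionein gene *MT2A* (0.72 ± 0.14, adjusted p = 0.00509). None of the 3 tested genes of the angiopoietin-like family and its lipase partners, out of 15 listed, passed edgeR's quasi-likelihood test, and 1 had an unadjusted p below 0.05. DESeq2 and the likelihood ratio test gave the same counts for both lists.

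**Figure D5:**
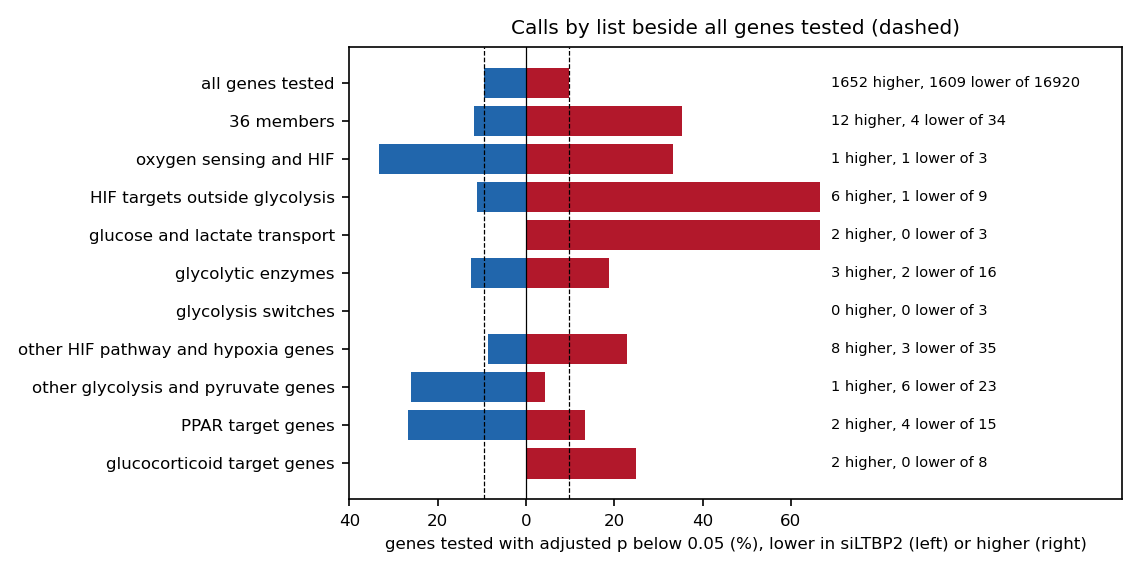
Bars give the percent of tested genes called higher (right, red) or lower (left, blue) in siLTBP2 for each list, with dashed lines at the 9.76% and 9.51% of all genes. The 36 members reach 35.3% higher, the targets outside glycolysis 6 of 9 and the glycolytic enzymes 3 of 16, and several lists hold few genes.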

How the data were processed

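Stranded libraries depleted of ribosomal RNA were sequenced from 6 CCD18Co samples, 3 per group. The authors deposited a table of raw counts per gene. The submitters' processing notes name bcl2fastq, STAR 2.7.1a and HTSeq 0.11.2 and the build GRCh38; for annotation release and strand setting, the sources used here name none. Groups were taken from the treatment label. Counts were tested in R 4.3.3 with edgeR 4.0.16 (filterByExpr, TMM factors, quasi-likelihood test, two-sided, no replicate block), with Benjamini-Hochberg adjustment over all 16920 genes tested. CPM values use TMM library sizes, SE is the log2 fold change over the square root of F, and the 95% intervals come from the same fit. The fit was tested on simulated data. Depth was 44663424-53576899 counts per library.

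Exon lengths and overlaps came from GENCODE 44, which held 60462 of the table's 60663 identifiers and the same start for 34 of the 36 members (*BNIP3* and *CA9* differed). The members, the other lists and the tests were chosen with earlier results of these data known. Values per library are given for *ANGPTL4*, every member at an adjusted p below 0.05 and 11 classical members; from other lists the deregulated genes and 5 preset genes were named. In all 14 alternatives were run. They used DESeq2 1.42.0 or the likelihood ratio test, scaled by RLE, by upper quartiles or by totals alone, kept every gene with a read or asked for 1 CPM in 3 libraries, added the replicate number as a block, or dropped each of the 6 libraries in turn. No replicate pair differed by as little as sampling noise (chi-square per degree of freedom 24.6 to 48.1).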

Additional observations from a re-analysis of the deposited data

How the results depend on the processing

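Of the alternative values for single members, 410 of 476 kept direction and side of the threshold, 39 lost the call, 19 gained one and 8 changed sign. The genes that changed sign did not pass the test in any of these fits. With 1 library left out, the log2 fold change of *HK1* ran from -0.056 to 0.12, that of *PFKP* from -0.11 to 0.069, that of *ALDOA* from -0.24 to 0.0054 and that of *PFKFB3* from -0.21 to 0.023. Among other genes *CPT1A* changed sign once, over a range from -0.20 to 0.039. *ANGPTL4* stayed called at log2 fold changes from 2.27 to 3.03 and *LTBP2* from -1.89 to -1.61.

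With 1 library left out, the members called higher numbered 6 to 9, those lower 3 to 5 and those deregulated 1 to 2. The median log2 fold change of the 36 members then ran from 0.10 to 0.18 and the median log2 fold change of the glycolytic enzymes from -0.065 to 0.075. Members deregulated were 2, with *ANKRD37* added, by the likelihood ratio test, DESeq2, no filter and the replicate block. With total counts the medians were 0.11 for members and -0.0082 for enzymes, beside -0.04 for all genes, and 1385 genes were higher and 1870 lower. Why the settings differed was not tested.

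With the replicate number as a block, 17 members were higher and 8 lower, and of all genes 3109 were higher and 3022 lower. Correlations of same-numbered deviations were 0.30, 0.08 and 0.43, and those of different numbers ran from -0.39 to 0.10. The highest of the latter was between siNT replicate 2 and siLTBP2 replicate 1. The main fit did not treat the numbers as pairs, and whether they mark pairs was not tested. Depth limited *CA9* and *EGLN3*.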

Other observations

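Of the other glycolysis and pyruvate genes, which were not part of the 36, 1 of 23 tested was higher (4.35%) and 6 were lower (26.1%), beside 9.76% and 9.51% of all genes tested. The other 16 did not pass, and the median log2 fold change was -0.05. The genes below were named after their values were seen. *PGD* and *TKT* of the NADPH-making pentose phosphate pathway had log2 fold changes of -0.42 ± 0.09 and -0.44 ± 0.10 (adjusted p = 0.00981 and 0.00957), while *TALDO1* of that pathway had -0.06 ± 0.09 and did not pass (adjusted p = 0.675). *SLC16A1*, the lactate and pyruvate carrier MCT1, was the higher one, at 66.4, 64.8 and 71.0 CPM in siNT and 120, 110 and 125 CPM in siLTBP2 (log2 fold change 0.81 ± 0.08, adjusted p = 1.7e-04). The groups did not overlap for *PGD*, *TKT* and *SLC16A1* and overlapped for *TALDO1*.

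The PPAR receptors moved in different directions. *PPARG*, which drives fat cell genes, was at 37.9, 38.8 and 44.5 CPM in siNT and 60.5, 62.4 and 71.1 CPM in siLTBP2 (log2 fold change 0.68 ± 0.10, adjusted p = 0.00115). *PPARD* was at 104, 94.6 and 103 CPM in siNT and 54.0, 59.0 and 46.5 CPM in siLTBP2 (log2 fold change -0.92 ± 0.10, adjusted p = 2.2e-04). *PPARA* was lower too, at -0.58 ± 0.09 (adjusted p = 0.00143). In each case the groups did not overlap, and these genes were also named after their values were seen.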
